A study of Homo sapiens with 38 samples.

Results

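Nuclear RNA from HCT116 cells that lack AGO1 and AGO2 was compared with nuclear RNA from wild-type HCT116 cells. The comparison takes in 6 of the 38 samples of the series, chosen by their labels: 3 nuclear libraries of the AGO1/2 knockout line (genotype AGO1-/-, AGO2-/-, culture passages 9, 10 and 11) and 3 nuclear libraries of wild-type cells (passages 27, 28 and 29). HCT116 is a human colorectal carcinoma line, and both groups were grown without any added agent. The knockout line was made by CRISPR editing and is a single line, so what is called AGO1/2 knockout here is also 1 clone at a lower passage than the wild type. Genotype, clone and passage cannot be told apart in these libraries. The libraries of a group are cultures of the same line at different passages, so each p-value measures the spread between passages. Nuclei were washed in hypotonic buffer with detergent, ribosomal RNA was removed, and stranded paired-end libraries were sequenced. The cytoplasmic fractions of the same lines, and the nuclear fractions of the AGO1, AGO2 and AGO1/2/3 knockout lines, are used below only where they show how the nuclear comparison differs.

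Argonaute proteins hold a microRNA, a small RNA whose bases 2 to 8, the seed, pair with sites in the 3′ untranslated region (UTR) of mRNAs. In the cytoplasm the complex recruits TNRC6 proteins and the deadenylation and decapping machinery, and the mRNA is translated less and decays faster. Human cells have the paralogs AGO1, AGO2, AGO3 and AGO4, which share much of this work, and all are also found in the nucleus. Nuclear RNA differs from whole-cell RNA: it is rich in unspliced and partly spliced transcripts, in long non-coding RNAs (lncRNAs) that are kept near chromatin, and in small nuclear and nucleolar RNAs, while mature mRNA passes through on its way out.

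Depth differed between the groups, with 20431557 to 26536692 estimated reads in the wild-type nuclear libraries and 47780524 to 54097984 in the AGO1/2 knockout. No pair of libraries agreed within sampling noise: chi-square per degree of freedom over genes was 4.85 to 43.7 within wild type and 9.25 to 42.3 within the knockout. Wild-type replicate 29 stood apart from replicates 27 and 28, which differed least of all pairs, and values that rest on replicate 29 are given with and without it. Markers of colon epithelium summed to 1154 to 1255 TPM (a level scaled for transcript length and library total) in wild-type libraries and 2598 to 2775 TPM in the knockout. The sum covers 8 genes and is set mostly by the abundant ones. Not all members followed it: CDH1, which is among the 8, was lower in the knockout, as described below. Fibroblast markers summed to 4.71 to 6.36 and 4.40 to 6.18 TPM, and endothelial markers to at most 0.308 TPM in any library. Leukocyte markers summed to 0.606 to 1.23 TPM in wild type and 4.65 to 5.41 TPM in the knockout, and 2 of the 5 markers, LYZ and CD68, passed the count filter, while PTPRC and CD3E had no read in the 6 libraries. Their part in other results was not tested.

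The edited genes were examined first. AGO1 (ENSG00000092847.14, chromosome 1, 35869808 to 35930532, plus strand, GRCh38) had 156, 155 and 130 CPM (reads of the gene per 1000000 reads of the library) in the wild-type libraries and 38.5, 37.8 and 42.0 CPM in the AGO1/2 knockout. The groups did not overlap, and AGO1 mRNA was 3.73-fold lower (log2 fold change -1.90, SE 0.07, adjusted p = 2.05e-11, edgeR). AGO2 (ENSG00000123908.12, chromosome 8, 140520156 to 140635633, minus strand), the paralog that can cut its target, had 535, 498 and 455 CPM in wild type and 445, 483 and 387 CPM in the knockout. These ranges overlapped, and the log2 difference of -0.18 (SE 0.08) missed the threshold at an adjusted p of 0.0536. AGO2 was called lower where counts were scaled by transcript length (log2 -0.54, adjusted p = 0.000683), on TPM with limma (-0.62, adjusted p = 0.00193), among genes with a mean count of at least 50 (-0.28, adjusted p = 0.00282), without knockout replicate 10 (-0.24, adjusted p = 0.0144) and without wild-type replicate 29 (-0.21, adjusted p = 0.0241). An edited gene can still be transcribed, so a stable mRNA level does not measure the protein, which was not analysed here.

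The remaining paralogs moved little. AGO3, which is intact in this line by its genotype, had 174, 188 and 160 CPM in wild type and 141, 148 and 141 CPM in the AGO1/2 knockout (log2 -0.28, SE 0.06, adjusted p = 0.000763). In cytoplasmic RNA the same gene went the other way (log2 0.36), and the difference between the fractions passed its own test (-0.74, adjusted p = 0.00317). AGO4, the least expressed member, had 15.0, 16.5 and 18.7 CPM in wild type and 20.5, 19.3 and 24.7 CPM in the knockout (log2 0.36, adjusted p = 0.0213). That call was lost on length-scaled counts, on TPM, with a mean count of at least 50, without knockout replicate 11 and without wild-type replicate 27, where the adjusted p lay between 0.0568 and 0.305.

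Across the genome the AGO1/2 knockout nucleus differed widely from wild type. Of 18919 genes tested, 12780 passed an adjusted p of 0.05 (67.6%), with 6221 higher (32.9%) and 6559 lower (34.7%). At the 2-fold threshold the balance was uneven, with 1245 genes higher (6.58%) and 3167 lower (16.7%), and at 8-fold 64 were higher and 326 lower. The 2-fold counts were 621 and 1054 with limma on log2(TPM + 1), and 771 and 1662 among genes with a mean count of at least 50. The 3 knockout libraries lay wholly on 1 side of the 3 wild-type libraries for 12581 genes (66.5%). Protein-coding genes alone were higher in 43.8% and lower in 25.8% of cases, and lncRNA genes in 4.09% and 56.7%. These shares are the background against which the count of each gene group below was read, those of protein-coding genes for all groups of mRNAs. They hold for nuclear calls only. In cytoplasmic RNA far fewer were called: of 13026 protein-coding genes tested in both fractions, 2789 were higher and 3058 lower. Cytoplasmic counts below are to be set against these. The cytoplasmic fit held 6 libraries and the nuclear fit 15, so their counts of calls were not made with the same power. A fit of only the 6 nuclear libraries called 11120 of 18035 genes.

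Of 25 partners in microRNA processing and silencing, 13 were higher (52.0%) and 6 lower, not far from the shares of all protein-coding genes. The largest were TNRC6C, a scaffold that Argonaute binds (log2 0.75), DCP2, the decapping enzyme (0.55; 0.25 and adjusted p = 0.0960 on TPM), TUT4, a uridylating enzyme (-0.57), and LIN28B, which blocks let-7 maturation (-3.37, from a mean of 0.414 CPM in wild type).

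The most widespread difference followed the class of RNA. Of 13601 protein-coding genes tested, 5962 were higher and 3506 lower in the knockout nucleus, with a median log2 fold change of 0.15. Of 3229 lncRNA genes, 132 were higher and 1832 lower, with a median of -0.78. None of 126 small nucleolar RNA genes was called higher and 102 were lower (median -1.12), and of 42 spliceosomal and other small nuclear RNA genes 40 were lower and none higher (median -1.75). The median over all 18919 genes was -0.06. In cytoplasmic RNA the medians of the same comparison were -0.02 for protein-coding genes and 0.02 for lncRNAs. These cover only the genes that were also tested in the cytoplasm, 13026 protein-coding genes and 1854 lncRNAs, so the sets of genes differ. The difference between the fractions was tested gene by gene: 711 of 3086 lncRNAs passed, 11 of them more positive and 700 more negative in the nucleus, where 5041 of all 19035 genes passed (26.5%). In the nuclear AGO1/2/3 knockout the median lncRNA value was -0.53, and in the nuclear AGO1 and AGO2 knockouts -0.17 and -0.27; all of these share the wild-type libraries.

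The shares of reads moved in the same way. lncRNAs took 3.74%, 4.02% and 4.60% of gene reads in the wild-type libraries and 1.75%, 1.67% and 1.96% in the knockout libraries, without overlap. Transcripts annotated as carrying a retained intron held 15.7% to 16.2% of TPM in wild type and 8.11% to 8.85% in the knockout. Those annotated as targets of nonsense-mediated decay, an mRNA quality check of the cytoplasm, held 3.81% to 3.86% and 3.34% to 3.41%. For each of these classes every knockout replicate was below every wild-type replicate. Mitochondrial reads, which come from outside the nucleus, were also lower, at 0.355% to 0.537% in wild type and 0.265% to 0.295% in the knockout. How completely cytoplasm was washed from the nuclei of each line was not tested.

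To see whether the place of a transcript in the cell goes with its change, 16932 genes were sorted into 5 equal groups by their nuclear over cytoplasmic level in the AGO1 knockout line, whose libraries are in neither group. In the least nuclear group, 2375 of 3387 genes were higher in the AGO1/2 knockout nucleus and 178 lower, with a median log2 fold change of 0.56. In the most nuclear group, 72 were higher and 2712 lower, with a median of -0.95. The groups between them fell in order, with medians of 0.33, 0.10 and -0.29. In the cytoplasm the medians of the 5 groups lay between -0.16 and 0.19. Across genes, Spearman's rho between the nuclear log2 fold change and the log2 compartment ratio was -0.66, against -0.19 for the cytoplasmic log2 fold change. Both are descriptions over genes that share libraries, and genes are not independent. The nuclear rho covers all 16932 genes. The cytoplasmic rho and medians cover only those with a cytoplasmic value, 3380 of 3387 in the least and 2107 of 3387 in the most nuclear group. The order held inside each class, since protein-coding genes ran from 0.59 in the least to -0.74 in the most nuclear group and lncRNAs from 0.10 to -0.97.

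**Figure D1:**
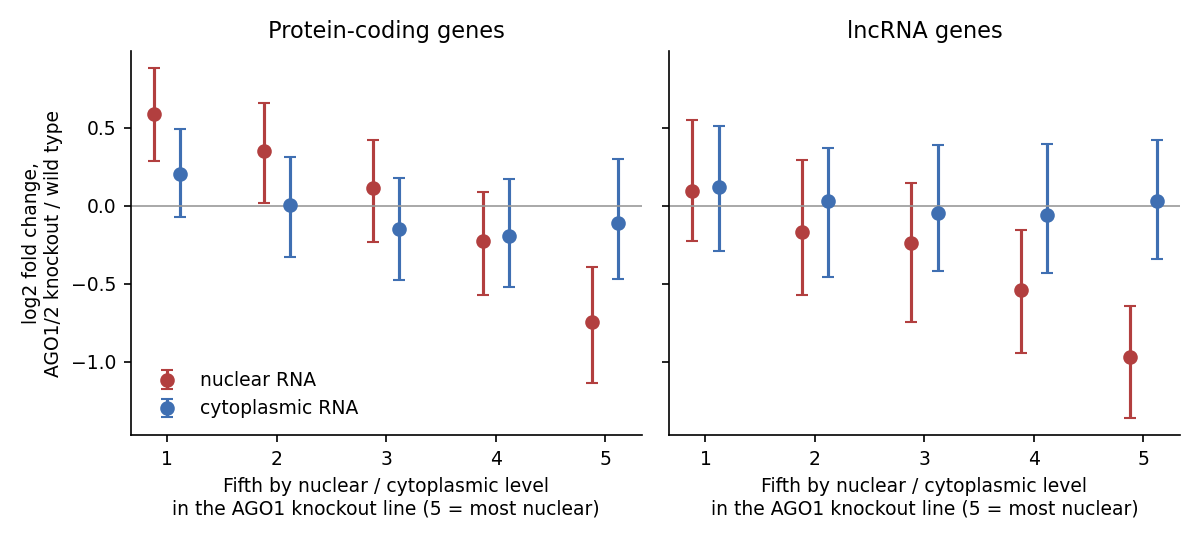
Log2 fold change between AGO1/2 knockout and wild type (vertical axis) by equal groups 1 to 5 of the nuclear over cytoplasmic level in the AGO1 knockout line (horizontal axis), for protein-coding genes on the left and lncRNA genes on the right; points are medians and bars run from the lower to the upper quartile of genes. Nuclear medians fall from 0.59 to -0.74 for protein-coding genes, while cytoplasmic medians stay between -0.19 and 0.20.

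Single nuclear RNAs show the size of this shift. MALAT1, an abundant RNA of nuclear speckles, had 13315, 14909 and 19655 CPM in wild type and 6678, 6494 and 7960 CPM in the knockout (log2 -1.18, SE 0.12, adjusted p = 7.08e-07). The groups were well apart, and the cytoplasmic level of the same RNA was higher in the knockout (log2 0.45, adjusted p = 0.0437). NEAT1, the scaffold of paraspeckles, had 573, 576 and 1145 CPM in wild type and 301, 260 and 391 CPM in the knockout (log2 -1.27, adjusted p = 8.94e-05), with the high value in replicate 29. Both remained far more abundant in nuclear than in cytoplasmic libraries of the knockout, with mean levels of 7044 against 1123 CPM for MALAT1 and 317 against 35.8 CPM for NEAT1, as the labels of the fractions require. KCNQ1OT1, an antisense RNA of an imprinted cluster, had 252, 245 and 185 CPM in wild type and 150, 137 and 158 CPM in the knockout (log2 -0.62, adjusted p = 9.80e-05). PVT1, the lncRNA neighbour of MYC, had 47.4, 52.5 and 45.2 CPM against 14.1, 18.0 and 13.9 CPM (log2 -1.66, adjusted p = 1.60e-09), and it lies in a part of chromosome 8 where most genes were lower. Of the 8 nuclear-retained RNAs tested, 5 were lower (62.5%) and none was higher, a share near the 56.7% of all lncRNA genes.

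The host genes of small RNAs followed. Small nucleolar RNAs are cut from introns of host transcripts, and 23 of 25 such host genes (SNHG genes) were lower and none higher, with a median log2 fold change of -0.73 in the nucleus and -0.03 in the cytoplasm. SNHG4 had 44.7, 38.9 and 26.7 CPM in wild type and 14.7, 15.6 and 14.7 CPM in the knockout (log2 -1.30, SE 0.13). SNHG12 had 142, 140 and 86.0 CPM against 65.8, 65.5 and 62.1 CPM (log2 -0.93). SNHG31 and SNHG25 were lower by -1.53 and -0.96 on the log2 scale. Of 15 microRNA host genes, 8 were lower (53.3%) and 1 higher, with a median of -0.67, no more often than the 56.7% of all lncRNA genes. MIR17HG, which carries the miR-17/92 cluster, had 38.2, 38.8 and 28.3 CPM in wild type and 14.3, 15.9 and 16.6 CPM in the knockout (log2 -1.17, adjusted p = 1.83e-07). MIR181A1HG fell from 19.2, 19.1 and 25.3 to 5.49, 5.79 and 6.60 CPM (log2 -1.83), and MIR222HG from 107, 111 and 119 to 45.4, 48.4 and 50.0 CPM (log2 -1.23). The cytoplasmic log2 values of these host transcripts were -0.28, -0.09 and 0.42, none past the threshold. MIR200CHG was lower in both fractions (log2 -1.18 in the nucleus and -1.55 in the cytoplasm). The mature microRNAs are too short for these libraries and were not analysed here.

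The largest single increases were in genes that wild-type nuclei hardly expressed. MYBPH, a myosin-binding protein of skeletal muscle, had 0.141, 0 and 0 CPM in wild type, which is 4 reads in all, and 14.0, 10.6 and 17.9 CPM in the knockout (log2 7.96, SE 0.49, adjusted p = 2.83e-09). Without wild-type replicate 27, which holds all 4 reads, the wild type is at 0. DCLK1, a microtubule-associated kinase, had 1.90, 1.30 and 1.62 CPM in wild type and 125, 155 and 98.5 CPM in the knockout (log2 6.28, SE 0.18, adjusted p = 1.70e-12). SLC2A3, the glucose transporter GLUT3, had 3.24, 3.05 and 6.16 CPM against 101, 155 and 55.0 CPM (log2 4.66, adjusted p = 1.66e-08). Each of these genes was also higher in cytoplasmic RNA, with log2 values of 8.08, 6.05 and 4.12. COL13A1, a transmembrane collagen, rose from 4.89, 4.64 and 8.72 to 126, 142 and 129 CPM (log2 4.46). VIM, the intermediate filament of mesenchymal cells, rose from 2.25, 3.22 and 2.43 to 39.5, 44.7 and 40.0 CPM (log2 3.98).

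The other genes of this kind include several that code for secreted or surface proteins. CLIC3, a chloride channel family member, was higher by 3.95 on the log2 scale and by 4.54 without wild-type replicate 29. FGFBP1, a carrier of fibroblast growth factors, was higher by 3.59, CAVIN3, a caveolar coat protein, by 3.52, and ECM1, an extracellular matrix glycoprotein, by 3.50. EFNA5, an ephrin ligand, had 1.90, 1.97 and 0.180 CPM in wild type and 11.5, 21.0 and 11.5 CPM in the knockout (log2 3.40, adjusted p = 2.58e-05), again with replicate 29 apart. TGM2, the tissue transglutaminase, rose from 10.0, 8.62 and 14.2 to 99.7, 134 and 88.6 CPM (log2 3.30). The 11 genes named here were also higher in cytoplasmic RNA, by 2.24 to 8.08, and in the nuclear AGO1/2/3 knockout, by 2.41 to 7.81. In the nuclear AGO1 knockout their values ran from -1.91 to 0.86 and in the AGO2 knockout from -6.17 to 2.75. DCLK1 was lower in both, by -1.08 and -6.17, and SLC2A3 was lower in the AGO1 knockout by -1.77.

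The largest decreases were in genes that the knockout nuclei hardly expressed at all. ANK3 (ankyrin G, which ties membrane proteins to the cytoskeleton) had 37.4, 41.7 and 42.7 CPM in wild type and 0, 0 and 0.0205 CPM in the knockout, where 1 read was seen against 3010. The ratio of levels was 6628 (95% exact binomial interval 1189 to 261900, counting error only). LRP1B, a large endocytic receptor, had 8.31, 9.45 and 12.3 CPM in wild type and no read in any knockout library, and was at least 163-fold lower against a floor of 3 reads per library. ANXA10, an annexin of gastric epithelium, had 15.7, 15.3 and 22.8 CPM in wild type and 2 reads in the knockout, both in replicate 10 (ratio 1452, interval 401 to 12000). HMCN1, an extracellular matrix hemicentin, had 536 reads in wild type and 2 in the knockout (ratio 590, interval 163 to 4885). TTN, the giant muscle protein titin, had 103, 115 and 105 CPM in wild type and 0.112, 0.119 and 0.225 CPM in the knockout (log2 -9.41, SE 0.19, adjusted p = 4.40e-14). No knockout library came near a wild-type library for any of these genes.

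GRHL2, an epithelial transcription factor, had 9.22, 10.8 and 11.8 CPM in wild type and 0.0672, 0 and 0.0205 CPM in the knockout (log2 -8.32, SE 0.48, and -9.49 without knockout replicate 9). GRB14, an adaptor of the insulin receptor, was lower by -7.34 (-8.17 without knockout replicate 11), and SLC1A3, a glutamate transporter, by -7.15. ZNF704, a zinc finger protein, had 82.0, 86.5 and 70.5 CPM in wild type and 0.515, 0.855 and 0.635 CPM in the knockout (log2 -6.90, SE 0.13, adjusted p = 3.97e-14). MAL2, a protein of transcytosis in polarized epithelium, had 42.5, 47.8 and 57.0 CPM against 0.650, 0.617 and 0.348 CPM (log2 -6.52). The lncRNA MSRB3-AS1 and the gene SAMD3 completed the 12, at log2 values of -5.91 and -5.89. Reads of MSRB3-AS1 could be shared with the gene it overlaps, since the strand setting of the quantification was not given in the sources used here. All 12 genes were lower in the cytoplasm as well, by -4.90 to -11.88, and in the nuclear AGO1/2/3 knockout. In the nuclear AGO1 and AGO2 knockouts the values of the 12 ran from -2.83 to 1.08 and from -7.38 to 1.27, lowest for LRP1B and ANXA10. A fitted log2 value of a gene with a few reads in 1 group depends on the prior count and is not a bound.

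**Figure D2:**
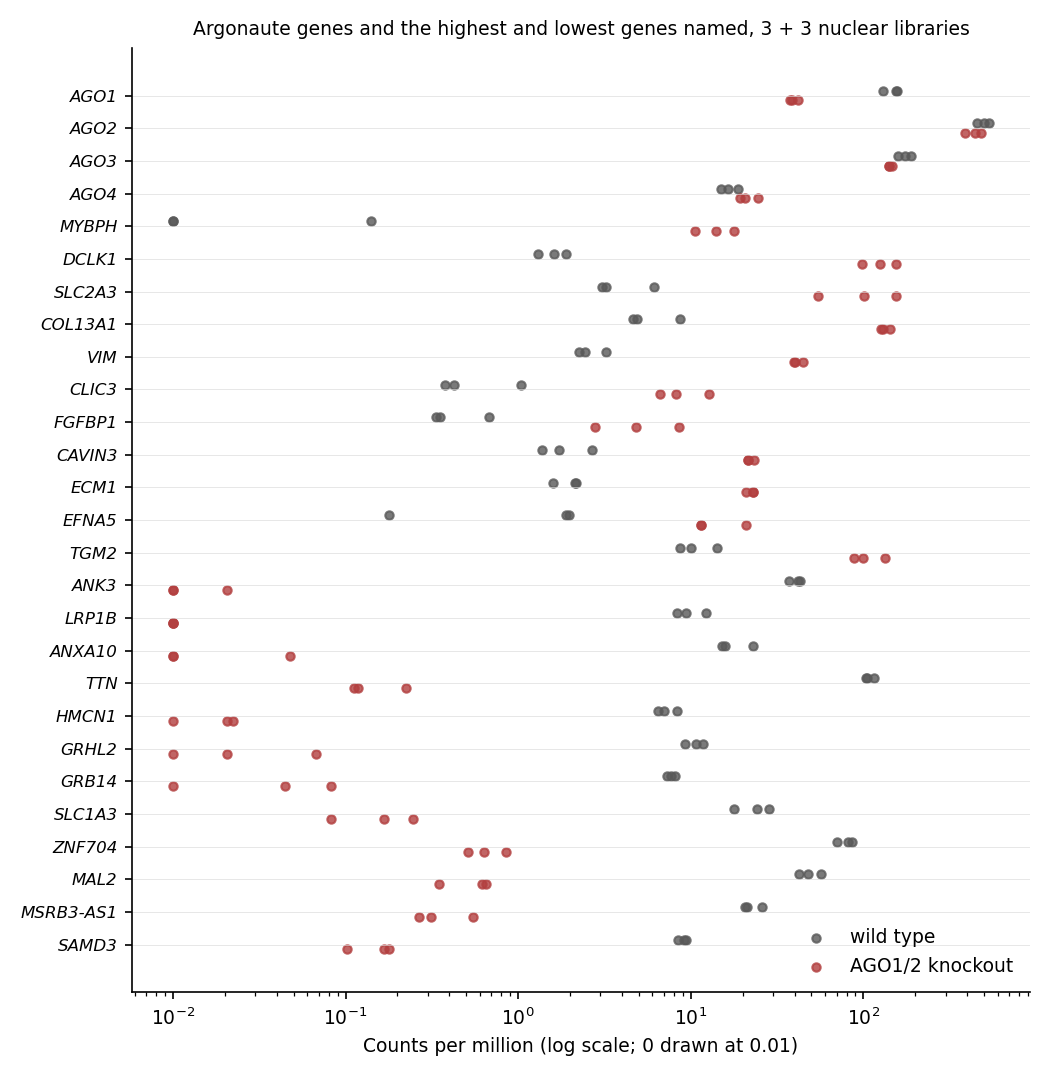
CPM in each nuclear library (horizontal axis, log scale, with 0 drawn at 0.01) of the Argonaute genes, 11 of the highest and the 12 lowest genes by log2 fold change; grey points are the 3 wild-type libraries and red points the 3 AGO1/2 knockout libraries. The groups are apart for every gene but AGO2, and the lowest genes sit below 1 CPM in each knockout library.

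Counts are of genes that passed the count filter, here and above. Tested were 25 of 29 small nucleolar RNA host, 15 of 18 microRNA host, 8 of 9 nuclear-retained, 32 of 41 interferon, 21 of 24 epithelial, 33 of 42 integrin and laminin, 25 of 44 collagen, 30 of 39 HOX, 163 of 248 zinc finger, 4 of 9 metallothionein, 54 of 68 histone, 82 of 87 respiratory chain, 82 of 84 ribosomal protein, 14 of 20 Wnt target, 21 of 48 protocadherin, 23 of 24 TGF-beta, 29 of 30 p53 target, 24 of 25 stress response, 25 of 26 glycolysis and hypoxia, 13 of 17 miR-200 and mesenchymal, 21 of 23 let-7 target and 19 of 20 miR-17 target genes, and the few cancer-testis and marker genes given below. A gene that passed only through the group where it is high had to differ, so these counts describe the genes tested and not whole lists. Among the groups with at least 8 genes tested, cholesterol and fatty acid synthesis had the highest share called in 1 direction. These genes are targets of the sterol-regulated SREBP transcription factors and make, import or desaturate lipids. Of 31 genes, 30 were higher in the knockout nucleus and none lower, 23 of them at least 2-fold, and the median log2 fold change was 1.24. INSIG1, which holds SREBP back when sterol is plentiful, had 9.05, 12.3 and 12.1 CPM in wild type and 105, 60.7 and 118 CPM in the knockout (log2 3.09, SE 0.22, adjusted p = 1.49e-08). SCD, the stearoyl-CoA desaturase, rose from 488, 593 and 675 to 2967, 1524 and 5544 CPM (log2 2.51, SE 0.32), with a wide spread among the knockout libraries. Knockout replicate 10 was the lowest of the 3 for both INSIG1 and SCD and still above every wild-type library. In the cytoplasm 17 of the 31 were higher and none lower (median 0.62), and the difference between the fractions passed its test for 10 genes, all more positive in the nucleus. That share is near the one of all protein-coding genes, where 3901 of 13523 passed, 2503 more positive and 1398 more negative. The medians in the nuclear AGO1, AGO2 and AGO1/2/3 knockouts, which share the wild-type libraries, were 0.65, 0.66 and 1.51.

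Genes of the interferon response and of RNA sensing, which cells switch on against viral RNA, were also mostly higher. Of 32 tested, 21 were higher and 3 lower (median log2 fold change 0.59), and 7 of the 21 reached 2-fold. CMPK2, a mitochondrial nucleotide kinase, had 0.598, 0.627 and 0.225 CPM in wild type and 2.49, 2.82 and 2.42 CPM in the knockout (log2 2.38, SE 0.29). IFIT3 had 1.37, 1.38 and 0.629 CPM against 4.70, 4.20 and 4.39 CPM (log2 1.95), and IFIT1 had 2.11 to 3.56 CPM against up to 13.9 CPM (log2 1.91). Both IFIT proteins bind foreign RNA. BST2, the virion tether tetherin, rose from 0.0704, 0.376 and 0.584 to between 1.14 and 2.01 CPM (log2 2.23, and 2.88 without wild-type replicate 29). All of these levels were low, a few CPM at most in wild type. In cytoplasmic RNA 10 of 31 were higher and 1 lower (median 0.21).

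Markers of epithelial and mesenchymal state were divided. Of 21 epithelial junction and keratin genes, 10 were higher and 7 lower in the knockout nucleus, whereas in the cytoplasm none was higher and 11 were lower. CDH1, the adhesion protein E-cadherin, had 74.8, 74.2 and 146 CPM in wild type and 19.8, 15.3 and 29.5 CPM in the knockout (log2 -2.18, SE 0.25, adjusted p = 1.74e-06). ESRP1, an epithelial splicing factor, had 172, 186 and 273 CPM against 42.9, 34.5 and 59.3 CPM (log2 -2.21, SE 0.18). Both were lower in the cytoplasm too, by -3.08 and -2.62, as was GRHL2 above. KRT7, a simple epithelial keratin, went up from 1.02, 0.878 and 4.85 to 7.82, 8.81 and 5.25 CPM (log2 1.73), and by 2.95 without wild-type replicate 29. The difference between the fractions passed its test for 8 of the 21 genes, all more positive in the nucleus, against 3901 of 13523 protein-coding genes, 2503 of them more positive. Among 13 mesenchymal genes and targets of miR-200, a microRNA family that keeps ZEB factors low in epithelium, 6 were higher (46.2%, near the 43.8% of protein-coding genes) and none lower (median 0.39). ZEB1, the transcription factor that represses CDH1, had 12.1, 12.3 and 8.67 CPM in wild type and 33.6, 35.6 and 33.3 CPM in the knockout (log2 1.63, SE 0.11, adjusted p = 7.94e-09), and a cytoplasmic log2 value of 2.28. MSN, the actin linker moesin, was higher by 1.31 and CFL2, a muscle cofilin, by 0.96.

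The TGF-beta pathway drives such changes of state in many epithelia. Of its 23 genes tested, 12 were higher (52.2%) and 4 lower (median 0.65). The ligand TGFB2 had 2.08, 2.17 and 1.71 CPM in wild type and 13.5, 14.1 and 16.6 CPM in the knockout (log2 2.89, SE 0.16, adjusted p = 8.79e-10). The target gene CCN2 rose from 2.32, 1.59 and 4.58 to 16.4, 20.6 and 11.3 CPM (log2 2.52). TGFBI had 2 reads in wild type, both in replicate 27, and 49 in the knockout (ratio 11.1, 95% exact binomial interval 2.92 to 94.5). LTBP1, which stores latent TGF-beta in the matrix, fell from 21.9, 17.5 and 25.3 to 2.51, 2.66 and 2.54 CPM (log2 -3.07, SE 0.13). Integrins and laminins, the receptors and ligands of cell-matrix contact, were split, with 10 of 33 higher and 8 lower. ITGB4, of the hemidesmosome, was higher by 2.19. ITGA2 (-2.02), ITGA1 (-4.95) and ITGBL1 (-4.70) were lower. The 25 collagen chains tested were split in the same manner, 9 higher and 8 lower.

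HOX genes, which mark position along the body axis, were mostly higher, 21 of 30, with 3 lower. The median log2 fold change was 0.82 in the nucleus and 0.74 in the cytoplasm, where 16 of 28 were higher and 2 lower. HOXB8 had 16.8, 16.6 and 14.4 CPM in wild type and 66.2, 69.7 and 59.1 CPM in the knockout (log2 2.02, SE 0.08, adjusted p = 2.89e-11). HOXB7 was higher by 1.67 and HOXC4 by 1.94, while HOXD3 was lower by -1.77 from about 1 CPM. The zinc finger genes of chromosome 19, mostly repressors of the KRAB class, went mainly down, with 84 of 163 lower and 19 higher (median -0.27 in the nucleus and -0.25 in the cytoplasm). ZNF426 had 7.67, 9.08 and 7.86 CPM in wild type and 0.650, 0.688 and 0.615 CPM in the knockout (log2 -3.65, SE 0.21). ZNF550 was lower by -4.19 (-5.62 without knockout replicate 11) and ZNF91 by -1.47, the latter with a cytoplasmic value of 0.04. ZNF575 was higher by 1.34. All 4 metallothioneins tested, small metal-binding proteins, were higher, by 1.02 for MT2A, 1.32 for MT1E and 1.60 for MT1F, with MT1X between them. Metallothionein and zinc finger genes have close copies, and reads could have been split among them.

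Housekeeping groups were mostly higher in the nucleus. So were protein-coding genes of the least nuclear group above, 75.5% of them (median 0.59, cytoplasm 0.20), against 43.8% of all protein-coding genes. How far the groups below go beyond that sorting was not tested. Of 82 cytosolic ribosomal protein genes 69 were higher and 6 lower (median 0.41, cytoplasm 0.10), and of 82 nuclear genes of the respiratory chain 63 were higher and 8 lower (median 0.48, cytoplasm -0.09). For the respiratory chain the difference between the fractions passed its test in 49 genes, 48 of them more positive in the nucleus. Glycolysis and hypoxia genes were higher in 21 of 25 cases and lower in 2 (median 0.83, cytoplasm -0.04), led after SLC2A3 by ALDOC (log2 1.72), ENO2 (1.31) and NDRG1 (1.23, and 2.06 without wild-type replicate 29). Replication-dependent histone genes, whose mRNAs lack a poly(A) tail and have near-identical copies, were higher in 41 of 54 cases and lower in 1 (median 0.74, cytoplasm -0.05). Genes of DNA replication and mitosis were higher in 23 of 32 cases and lower in 1 (median 0.41), while 13 were lower and 1 higher in the cytoplasm (median -0.33). CCNA2, cyclin A2, had 49.7, 49.2 and 30.7 CPM in wild type and 91.2, 118 and 111 CPM in the knockout (log2 1.30, adjusted p = 0.00439). TYMS, AURKA and PLK1 were higher by 1.12, 1.23 and 1.09. Mitochondrially encoded mRNAs did not follow, with 4 of 13 lower and none higher in the nucleus (median -0.29) and 10 higher in the cytoplasm (median 0.78). MT-CO2, a subunit of cytochrome oxidase, was lower by -0.38 in the nucleus, and by -0.20 (adjusted p = 0.0659) without wild-type replicate 27.

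**Figure D3:**
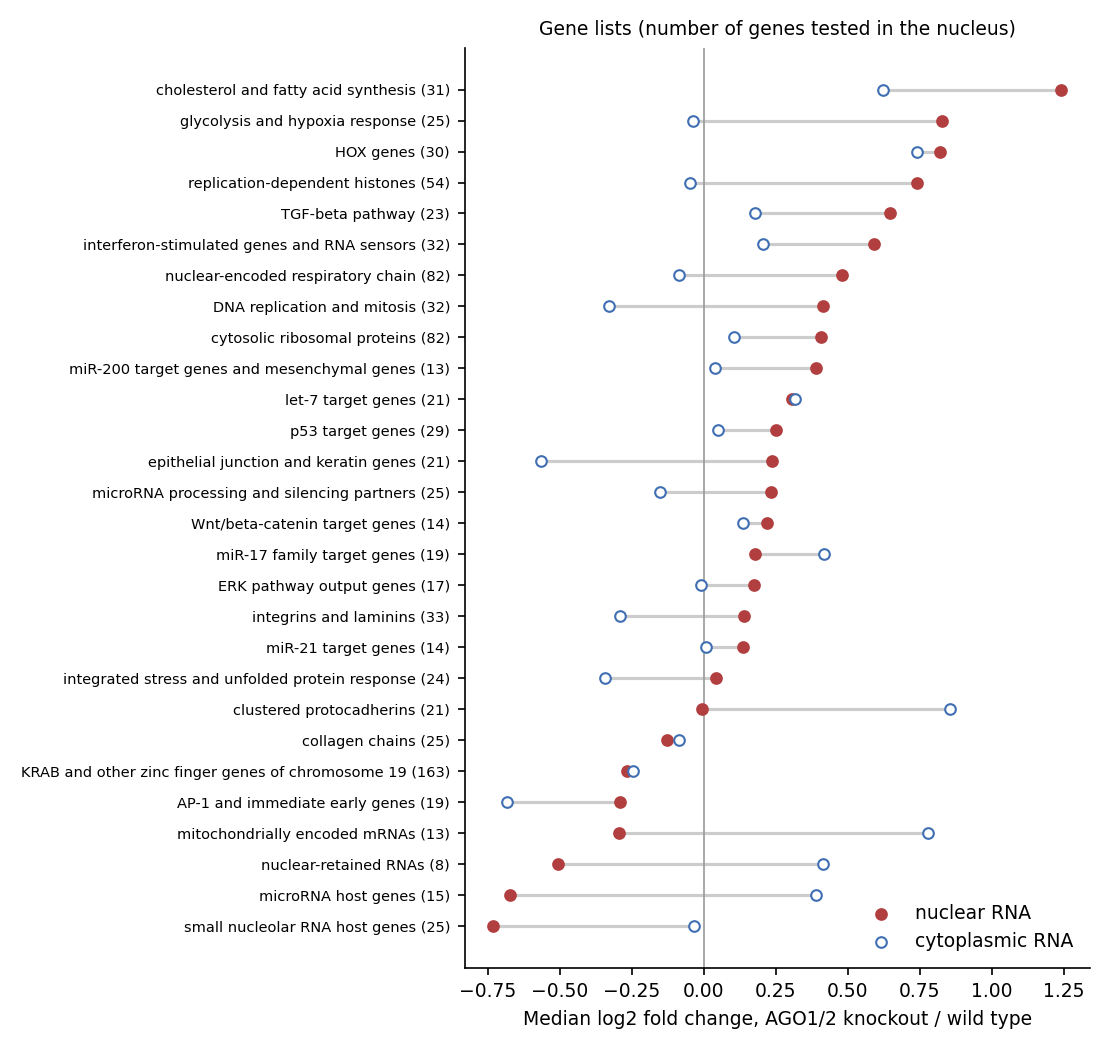
Median log2 fold change between AGO1/2 knockout and wild type (horizontal axis) of each gene group with at least 8 genes tested, with the number tested in brackets; filled red points are nuclear RNA and open blue points cytoplasmic RNA. Cholesterol and fatty acid synthesis is farthest right in the nucleus at 1.24, and small nucleolar RNA host genes are farthest left at -0.73.

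Signalling groups gave mixed counts, and their shares of higher genes, 31.6% to 44.8%, were near or below the share of all protein-coding genes. Their shares of lower genes ran from 8.33% to 42.1%, highest for AP-1 and immediate early genes, against 25.8% of all protein-coding genes. Of 29 p53 target genes 13 were higher and 5 lower. SFN, the checkpoint protein 14-3-3 sigma, was higher by 1.65 and PLK2 by 1.61. CDKN1A, the cell cycle inhibitor p21, had 61.3, 64.5 and 124 CPM in wild type and 185, 169 and 162 CPM in the knockout (log2 1.05, adjusted p = 0.000334), and SPATA18 was lower by -4.60. Of 24 genes of the integrated stress and unfolded protein responses 10 were higher and 2 lower, with the endoplasmic reticulum chaperones CALR (1.16), PDIA4 (1.13) and DNAJB9 (1.10) highest. ASNS, asparagine synthetase, had 84.4, 99.0 and 441 CPM in wild type and 58.7, 43.4 and 94.97 CPM in the knockout. Its log2 value of -1.66 (adjusted p = 0.00890) rested on wild-type replicate 29, without which it was -0.45 (adjusted p = 0.207).

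Outputs of ERK signalling were split, 7 of 17 higher and 5 lower. Of 19 AP-1 and immediate early genes, 6 were higher and 8 lower (42.1%, median -0.29). In the cytoplasm 10 of these 19 were lower and 2 higher (median -0.68), where 3058 of 13026 protein-coding genes were lower. FOSL1, an AP-1 subunit, was higher by 1.80 and KLF2, a zinc finger factor, by 1.88. EGR1 was lower by -1.75 and EGR3 by -1.92, and by -1.13 and -1.18 without wild-type replicate 29, which had 230 CPM of EGR1 against 101 and 80.1 CPM in the other wild-type libraries. Of 14 Wnt target genes 6 were higher and 2 lower. SP5 (2.10) and NOTUM (1.42) were higher, and MYC, a growth regulator, had 326, 295 and 296 CPM in wild type and 184, 187 and 207 CPM in the knockout (log2 -0.66, SE 0.07). Of 21 clustered protocadherins 6 were higher and 1 lower. All 4 cancer-testis genes tested were higher, while the other 47 of that group were under the count filter. LYZ and CD68, the leukocyte markers tested, were higher by 4.65 and 2.72. LYZ ranged from 4.03 without wild-type replicate 27 to 5.36 without replicate 29, and CD68 was 3.46 without replicate 29. Neither fibroblast marker tested was called, and KDR, an endothelial receptor, was lower by -3.66 from under 1 CPM (-2.81 without wild-type replicate 29 and -4.24 without knockout replicate 11).

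Genes that are known targets of microRNAs were examined next. The seeds of 3 families are printed because the target sites described below pair with them, with bases 2 to 8 in capitals (RefSeq).
hsa-let-7a-5p: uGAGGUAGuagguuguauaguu
hsa-miR-17-5p: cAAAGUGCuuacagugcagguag
hsa-miR-200c-3p: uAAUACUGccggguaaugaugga
A site was searched in the 3′ UTR as the complement of the seed followed by A, an 8-base match on the transcript strand. For let-7 the letters are CTACCTCA, for miR-17 GCACTTTA and for miR-200 CAGTATTA.

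Of all protein-coding genes, 43.8% were higher and 25.8% lower in the nucleus. Of 21 let-7 targets tested, 12 were higher (57.1%) and 7 lower (33.3%), both above those shares. The median log2 fold change was 0.31 in the nucleus and 0.32 in the cytoplasm. IGF2BP1, an RNA-binding protein of fetal tissue, had 0.915, 0.920 and 1.03 CPM in wild type and 2.58, 1.95 and 2.23 CPM in the knockout (log2 1.24, SE 0.23). THBS1, the matrix protein thrombospondin, rose from 29.7, 20.9 and 23.1 to 78.6, 127 and 38.0 CPM (log2 1.72, SE 0.30). LIN28B and E2F5, a cell cycle transcription factor, were lower, by -3.37 and -1.62, although each is on the same list. Of 19 targets of the miR-17 family, 10 were higher (52.6%) and 3 lower (15.8%), with a median of 0.18 in the nucleus and 0.42 in the cytoplasm. CCND1, cyclin D1, had 487, 451 and 421 CPM in wild type and 1729, 2045 and 1544 CPM in the knockout (log2 1.97, SE 0.10, adjusted p = 5.44e-10). ITGB8, an integrin that activates TGF-beta, had 16.6, 17.2 and 15.2 CPM against 47.7, 53.3 and 50.6 CPM (log2 1.63, SE 0.09, adjusted p = 1.60e-09). ZBTB4, a repressor that binds methylated DNA, and ZNFX1, an RNA helicase-like protein, were higher by 1.17 and 1.10. In cytoplasmic RNA the log2 values of ITGB8, ZBTB4 and ZNFX1 were 2.14, 1.13 and 0.67. Of 14 miR-21 targets 5 were higher (35.7%), with RHOB (1.53) and SMAD7 (0.97) at the top. Lower were 4 (28.6%), with SPRY1 (-1.23) and SPRY2 (-0.82) at the bottom.

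Sites of several called genes are shown with their GRCh38 positions, the match in capitals, because they are what the seeds above pair with. The 3 sites for miR-200 in the ZEB1 3′ UTR, on the plus strand, stand first.
ZEB1 chr10:31527622-31527651: ttttatcttatCAGTATTAtcactcttatg
ZEB1 chr10:31528496-31528525: tttttacctatCAGTATTAttttatttctt
ZEB1 chr10:31528566-31528595: ttcaaacctggCAGTATTAatacccttctt
Of the miR-17 targets, 9 had an 8-base match, and those called are shown. ITGB8, ZBTB4 and ZNFX1 were higher. BAMBI, a decoy receptor of the TGF-beta family, was lower by -0.50 (adjusted p = 0.00984) and TGFBR2, a TGF-beta receptor, by -0.18 (adjusted p = 0.00605), with cytoplasmic values of -1.01 and 0.77. BAMBI lost its call with only the 6 libraries (adjusted p = 0.0528), without knockout replicate 11 (0.0525) and without wild-type replicate 27 (0.0623), and TGFBR2 on length-scaled counts (0.0824), with no filter (0.315) and with only the 6 libraries (0.0596). The sites lie on the plus strand in ITGB8, BAMBI and TGFBR2 and on the minus strand in ZBTB4 and ZNFX1, where ZNFX1 has a second one that is not shown.
ITGB8 chr7:20410217-20410246: gtgtcgttgtaGCACTTTActgtaatatat
ZBTB4 chr17:7460062-7460091: tcttgtttctgGCACTTTAgaaaaactgca
ZNFX1 chr20:49246765-49246794: cgctagagtaaGCACTTTAtctccagaact
BAMBI chr10:28682456-28682485: gctggacaggaGCACTTTAtctgaagacaa
TGFBR2 chr3:30691856-30691885: caataacatttGCACTTTAttaatgcctgt
The let-7 sites shown for IGF2BP1, which rose, and for LIN28B, which fell, are both on the plus strand. Each of these genes has further 8-base matches that are not shown.
IGF2BP1 chr17:49051065-49051094: tgcgaagtaaaCTACCTCAaggtatgaagt
LIN28B chr6:105078816-105078845: ggttgcaaagtCTACCTCAtgcaagtatag
A match is a description of the sequence and not a measured binding event. Of the 21 let-7 targets tested, 20 had a 3′ UTR to search and 11 an 8-base match, so the lists do not rest on these matches alone.

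Over all genes with a 3′ UTR the picture in the nucleus differed from the cytoplasm. The median nuclear log2 fold change of 13360 genes was 0.16, and for genes with an 8-base match to 1 of 14 families the medians lay between -0.01 and 0.14, below it in all 14 families. In the cytoplasm the median of all genes was -0.02 and those of the families lay between -0.06 and 0.08, above it in 10 of the 14. let-7 matches were in 501 of the 13360 genes, with medians of 0.03 in the nucleus and 0.02 in the cytoplasm. miR-17 matches were in 618 genes, with medians of 0.14 and 0.08, and miR-19 matches in 815, with 0.14 and 0.04. miR-122, a microRNA best known from liver, had matches in 380 genes with medians of 0.11 and 0.01. The genes with matches also had longer 3′ UTRs (median 2858 bases for let-7 against 1009 over all genes) and a higher nuclear share (log2 nuclear over cytoplasmic level in the AGO1 knockout line 0.36 against 0.20). Within 3 classes of 3′ UTR length the median of a family was above that of all genes of its class in 9 of 42 cases in the nucleus and in 26 of 42 in the cytoplasm. These counts and the 10 of 14 include miR-122 and a family best known from muscle. In the cytoplasm miR-122 was above in all 3 classes, by 0.03, 0.05 and 0.01. The muscle family was above by 0.21 and 0.05 in the short and middle classes and at -0.01 in the long one. Whether families of epithelia differ from these was not tested. Genes that share a family are not replicates and no test was made of these medians.

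**Figure D4:**
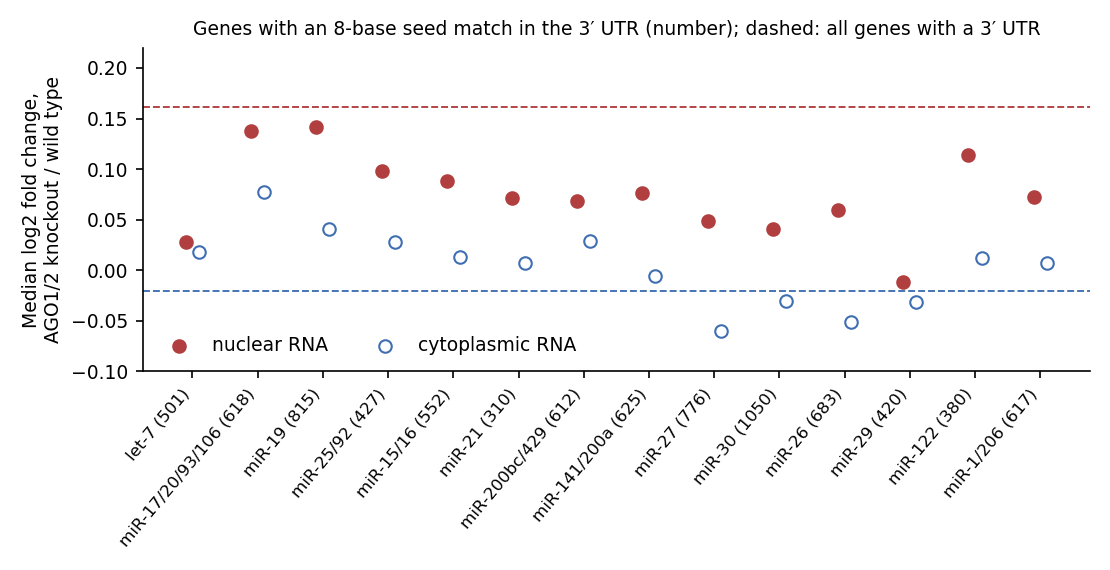
Median log2 fold change between AGO1/2 knockout and wild type (vertical axis) of genes whose 3′ UTR holds an 8-base match to each microRNA family (horizontal axis, number of genes tested in the nucleus in brackets); red points are nuclear and open blue points cytoplasmic RNA, and dashed lines are the medians of all genes with a 3′ UTR. All 14 red points lie below the red line at 0.16, and 10 of 14 blue points lie above the blue line at -0.02.

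The values were also read along the chromosomes, because each knockout line is a clone. Chromosome 8 had the lowest median of protein-coding genes of 23 chromosomes, -0.24. The low values lay in its distal part, beyond 70 Mb, a boundary set after the values were seen. Of 253 genes tested there, 175 were lower and 15 higher, with a median log2 fold change of -0.53, while on all other chromosomes 24.9% of 13123 genes were lower and the median was 0.17. The 205 genes in the first part of chromosome 8 had a median of 0.25. The cytoplasmic comparison gave 183 of 240 genes lower in the distal part and a median of -0.64. The nuclear medians there were -0.61 in the AGO1/2/3 knockout, 0.00 in the AGO1 knockout and 0.00 in the AGO2 knockout, all against the same wild-type libraries. In windows of 10 Mb, 5 of the 10 lowest medians among 237 windows with enough genes were in this part of chromosome 8. GRHL2, ZNF704 and MAL2 of the 12 lowest genes lie there, as do AGO2, MYC, PVT1, ESRP1 and E2F5, and the share of their differences that goes with this position was not tested. DNA copy number was not measured in these samples.

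**Figure D5:**
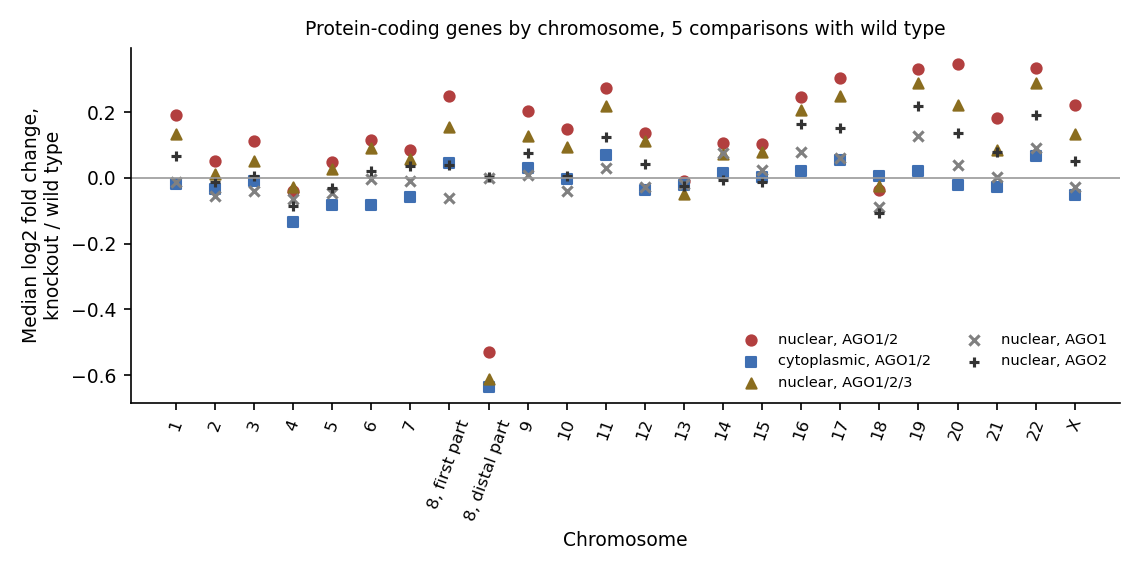
Median log2 fold change of protein-coding genes against wild type (vertical axis) by chromosome (horizontal axis, with chromosome 8 in 2 parts) in 5 comparisons: nuclear and cytoplasmic AGO1/2 knockout and nuclear AGO1/2/3, AGO1 and AGO2 knockouts. In the distal part of chromosome 8 the AGO1/2 and AGO1/2/3 points lie at -0.53 to -0.64 and the AGO1 and AGO2 points at 0.00.

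The difference between nucleus and cytoplasm was also taken gene by gene. Of the 5041 genes that passed, 2561 were more positive in the nucleus, 2480 more negative, and 1531 differed at least 2-fold. GALNT3, a glycosyltransferase, had 11.7, 11.8 and 15.9 CPM in wild-type nuclei and 0.717, 0.570 and 0.779 CPM in knockout nuclei (log2 -4.24), and fell further in the cytoplasm (log2 -6.82), so that the difference was 2.49 (SE 0.30, adjusted p = 0.000273). RECQL, a DNA helicase, and LMAN1, a cargo receptor of the early secretory pathway, gave the same picture, with nuclear values of -2.52 and -2.67, cytoplasmic values of -4.26 and -4.36 and differences of 1.64 and 1.60. KLRK1, a receptor of natural killer cells, had the largest positive difference, 2.85 (adjusted p = 0.0292), but rested on fewer than 1 CPM in the cytoplasm and lost its call without any 1 of 4 libraries (adjusted p 0.0530 to 0.0835). Without cytoplasmic knockout replicate 9 the KLRK1 difference was 6.04. FMC1-LUC7L2, a read-through transcript whose reads could belong to either parent gene, was higher in the nucleus (1.32) and not called in the cytoplasm (-0.22).

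The most negative differences were in genes that lie inside or next to others. FSBP had 17.2, 16.7 and 14.2 CPM in wild-type nuclei and 1.99, 4.11 and 1.70 CPM in knockout nuclei (log2 -2.64), and a cytoplasmic level of 0.221 and 0.520 CPM, for a difference of -3.94 (SE 0.61), or -4.71 without cytoplasmic wild-type replicate 28. TARID, a lncRNA, fell by 4.49 on the log2 scale in the nucleus and by 1.78 in the cytoplasm. ADAM32, a member of a sperm protein family, was lower in the nucleus (-0.89) and higher in the cytoplasm (1.57). TAS2R19, a taste receptor gene, and OR51I1, an olfactory receptor gene, were lower in the nucleus by -1.41 and -2.14, with differences of -2.88 (-3.95 without cytoplasmic wild-type replicate 28) and -2.56. Reads of unspliced neighbours could have been counted for these genes, and which transcript they came from was not tested.

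The AGO1/2/3 knockout is the line most like the AGO1/2 knockout, and the first principal component of the nuclear libraries (51.5% of variance) held both on 1 side and the other 3 genotypes on the other. In the direct contrast of these lines, taken from the fit of all 15 nuclear libraries, 659 of 18919 genes passed (3.48%), 329 higher and 330 lower in the AGO1/2 knockout, and 10 and 53 of them at least 2-fold. This count rested on single libraries and on the tool. It fell to 31 without AGO1/2 replicate 9 or 10, to 33, 83 and 280 without AGO1/2/3 replicates 11, 12 and 14, and rose to 3153 without AGO1/2 replicate 11, while DESeq2 gave 2177 genes, 1550 higher and 627 lower. A fit of only the 6 libraries of the contrast gave 113 genes, 19 higher and 94 lower. DCLK1 had 53.8, 49.8 and 53.2 CPM in the AGO1/2/3 knockout, below its 98.5 to 155 CPM in the AGO1/2 knockout (log2 1.18, SE 0.13, adjusted p = 0.000590). PCDH7, a protocadherin, had 18.8, 12.6 and 17.4 CPM in the AGO1/2 knockout and 52.6, 40.8 and 41.6 CPM in the AGO1/2/3 knockout (log2 -1.57, SE 0.12, adjusted p = 3.47e-05), against 120 to 133 CPM in wild type. SAMD5 had 9.70, 7.90 and 14.2 CPM against 26.7, 26.1 and 29.7 CPM (log2 -1.47, adjusted p = 0.000660). These 3 genes were called in each of the 6 fits that left out 1 library. THBS1 (1.40), TM4SF18 (1.02), KIAA0040 (-1.35) and SCNN1A (-1.02) lost their call in 5 of the 6, with adjusted p from 0.0599 to 0.189.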

How the data were processed

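Nuclear RNA was sequenced from wild-type and AGO1/2 knockout HCT116 cells (3 libraries each), with nuclear AGO1, AGO2 and AGO1/2/3 knockout libraries and cytoplasmic libraries as further comparisons. The authors used STAR and Salmon on hg38. The submitters' notes give STAR 2.5.3a and Salmon 0.11.0, the article other versions and an annotation release that could not be matched, so GENCODE release 44 was used. The deposited estimated counts (expected reads per transcript, not normalized) were matched by identifier (97.8% of 200401 transcripts; the rest, 2.23% to 4.01% of reads, were left out), summed per gene and rounded to whole numbers. The deposited TPM values, which the authors scaled for effective length to a total of 1000000 a library, were used for marker sums, shares of transcript classes and an alternative test.

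Genes were tested in R 4.3.3 by edgeR's quasi-likelihood test (version 4.0.16, TMM, filterByExpr with a minimum count of 10, the 15 nuclear libraries in 1 fit, Benjamini-Hochberg, called at 0.05). Cytoplasmic calls came from a separate fit of the 6 cytoplasmic libraries of the AGO1/2 knockout and wild type. The difference between fractions was an interaction term over 12 libraries. An exact permutation test of 3 against 3 libraries cannot go below 0.1 (two-sided) and was not used for calls. Levels are CPM. Alternatives were DESeq2 1.42.0, RLE size factors, length-scaled counts, limma 3.58.1 on log2(TPM + 1), no filter, a mean count of at least 50, the 6 libraries alone, and each library left out. The steps were run on simulated data in which a small set of genes was changed, as many up as down. Those genes had a mean count of at least 50 and a fixed spread. Most genes were called in the real data, so these runs cannot check the calls in that setting. Tables were handled in Python 3.11.15 with numpy 2.4.6 and pandas 2.3.3, and figures drawn with matplotlib 3.10.9. A 3′ UTR was that of the most abundant coding transcript and at least 30 bases long.

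Named were the 4 Argonautes, the 12 highest and 12 lowest protein-coding or lncRNA genes (called, 2-fold, libraries not overlapping, at least 5 CPM in the higher group, with a gene symbol), up to 4 members of each list, and up to 5 genes in each direction of the other contrasts; 1 Y-linked gene was passed over, and some genes that this rule selects are not reported here. Members and lists were chosen with earlier results of these data known. The depth of 20431557 to 54097984 estimated reads sets the counting error, and intervals and floors cover that error only.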

Additional observations from a re-analysis of the deposited data

Results flagged for a closer look

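The same contrast, AGO1/2 knockout against wild type, was made in nuclear and in cytoplasmic RNA, and the test of the difference between the fractions (edgeR interaction term) flagged 5041 of 19035 genes. The 10 genes named had nuclear minus cytoplasmic log2 fold changes of 2.85 for KLRK1, 2.49 for GALNT3, 1.64 for RECQL, 1.60 for LMAN1, 1.45 for FMC1-LUC7L2, -3.94 for FSBP, -2.88 for TAS2R19, -2.81 for TARID, -2.56 for ADAM32 and -2.56 for OR51I1. Groups held 3 libraries, too few to look for single outlying samples gene by gene.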

How the results depend on the processing

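The count of genes differing between the nuclear AGO1/2 knockout and wild type stayed between 10257 and 13026 over all alternatives, against 12780. The count at 2-fold was 4412 and fell to 1675 with limma on log2(TPM + 1), where the added 1 shrinks low genes, and to 2433 with a mean count of at least 50, where fewer genes were tested. The contrast with the AGO1/2/3 knockout called 659 genes, 2177 with DESeq2, 113 with only the 6 libraries (19 higher, 94 lower), 710 with a mean count of at least 50, and 31 to 3153 when single libraries were left out; the cause was not tested. The median of genes with an 8-base seed match to any of the 14 families, leaving out those best known from liver and muscle, was 0.12. It was -0.0003 with limma on TPM and 0.15 with 7- and 8-base matches. In the short, middle and long classes of 3′ UTR it was 0.15, 0.16 and 0.0946, and without single libraries 0.12 to 0.15. The median of chromosome 8 was -0.24, -0.23 with limma on TPM and -0.25 to -0.20 without single libraries. DESeq2 centred the difference between the fractions lower, with a median over genes of -0.25 against -0.04, and its split was 2435 more positive and 2916 more negative.

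The nuclear and cytoplasmic libraries of a line share passage numbers, but no label says that same-numbered libraries came from 1 culture. Deviations from the group mean correlated between same-numbered libraries by 0.41, 0.45 and 0.76 in wild type and by 0.04, 0.47 and 0.63 in the knockout. One of the 6 was under 0.1, so the paired fit stayed an alternative: with the passage number as a replicate block, 8802 genes differed between the fractions, against 5041. Every library correlated more with its own number than, on average, with the others. Of 1659 alternative values for the 129 genes named, none reversed its direction with both calls past the threshold, 19 lost their call and 5 gained one, the latter all of AGO2. Chosen after seeing the data, the counts described first were recomputed without wild-type replicate 29 and moved by less than 1.5 times (lncRNAs lower 1667, interferon genes higher 24, distal chromosome 8 lower 175). Depth and 3 libraries per group limit genes under about 1 CPM most.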
